A study of Rattus norvegicus with 6 samples.

Results

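In rat liver, 10 genes of lipoprotein biology were described, out of 10609 named genes that could be tested on the arrays. They were Apob and Mttp, which build lipoprotein particles, and the apolipoprotein genes Apoa1, Apoa2, Apoa4, Apoa5, Apoc1, Apoc3, Apoe and Apoh. Members were taken by name and not by a rule on their values, although earlier results of these data were known. They were read at every probe whose RefSeq accession belongs to these 10 genes. That gave 16 probes of 61657, and all 16 were well above background on all 6 arrays. Liver RNA came from 3 rats killed after isoflurane anaesthesia and from 3 rats killed after CO2/O2 anaesthesia, with 1 rat per 1-colour array. All 6 were male Sprague-Dawley rats, an outbred stock, aged 9 weeks. All had received corn oil, the vehicle, at 5 mL/kg/day, for 3 days by the design text and for 9 weeks by the treatment protocol. Isoflurane is a volatile anaesthetic given by inhalation, and CO2/O2 is a mixture of gases used to make rodents lose consciousness. No rats without anaesthesia were measured, which leaves no baseline for either gas.

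Apolipoproteins are the protein part of the particles that carry lipid through the blood. In the hepatocyte, microsomal triglyceride transfer protein loads lipid onto apolipoprotein B as that protein enters the endoplasmic reticulum, and the product leaves the cell as very low density lipoprotein (VLDL). The smaller apolipoproteins exchange between particles and set their fate, as ligands of receptors, as cofactors or inhibitors of lipases, or as the scaffold of high density lipoprotein (HDL).

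No member gene differed detectably in messenger RNA between isoflurane and CO2/O2 rats. With limma, 0 of 10 genes passed an adjusted p of 0.05 (smallest 0.73), and 0 of 10 had an unadjusted p under 0.05. Over the whole array the share called was 0.0% of genes at the adjusted threshold and 7.58% at the unadjusted one. Of the 16 member probes, 0 passed the adjusted threshold, against 0.00866% of all probes tested. Each gene was read at its brightest probe, in log2 units relative to the 75th percentile of its array. The difference, isoflurane minus CO2/O2, was above 0 for 6 genes and below 0 for 4, with a median of 0.014 against -0.011 over all genes tested. The median absolute difference was 0.057 for the 10 genes and 0.11 for all genes tested. The 95% confidence intervals of the 10 genes lay between 0.672-fold and 1.39-fold, so changes of 2-fold in either direction were outside every interval. Medians over these genes are descriptions, since the genes share the same 6 rats.

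**Figure D1:**
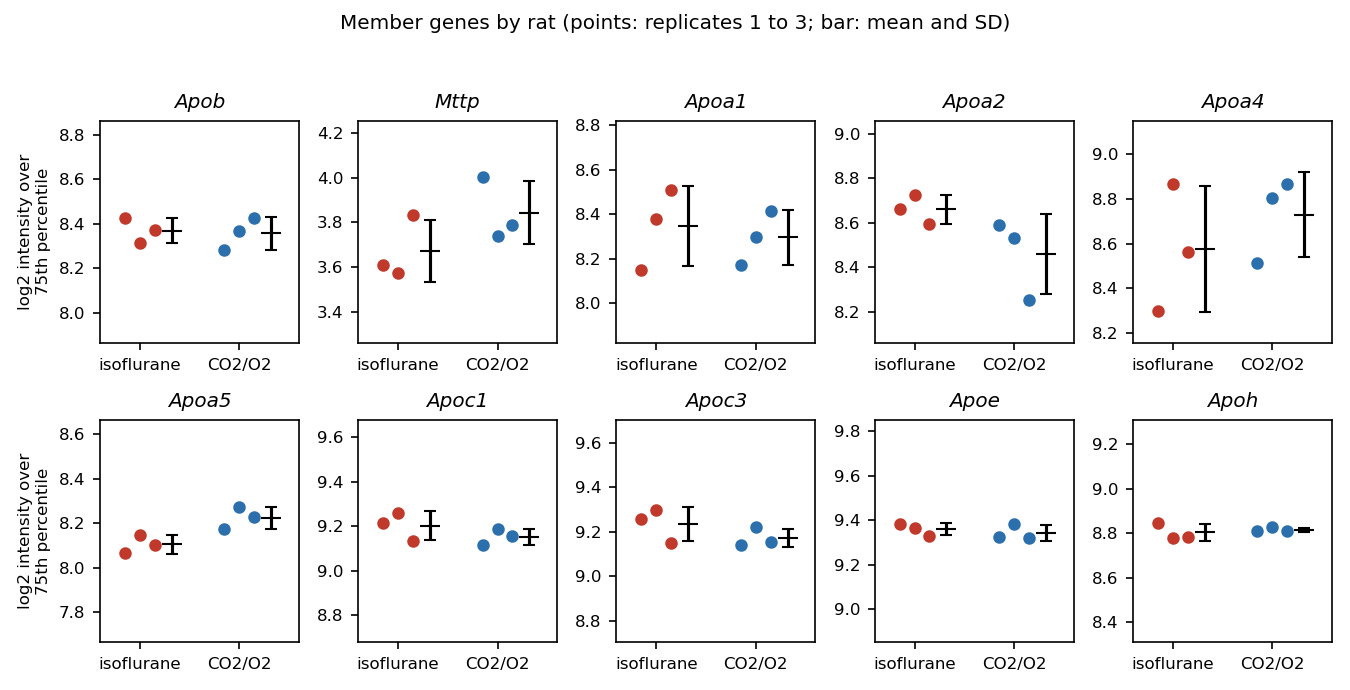
Log2 intensity over the array's 75th percentile for each of the 10 genes at its brightest probe, with 1 point per rat (isoflurane left, red; CO2/O2 right, blue) and the mean with its SD as a black bar. Every panel spans the same range of 1 log2 unit around the gene's own mean. Points of Apoe and Apoh lie almost on a line, while those of Apoa4 and Apoa2 are spread over 0.57 and 0.47 units.

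Apob encodes apolipoprotein B, the protein that stays with a VLDL particle from assembly to uptake. Its brightest probe, A_44_P552692, read 8.42, 8.31 and 8.37 in isoflurane rats, against 8.28, 8.37 and 8.43 in CO2/O2 rats. The groups overlapped almost entirely, at 8.37 ± 0.055 and 8.36 ± 0.074 (SD, n = 3 each). The difference was 0.011 ± 0.084 (SE; limma adjusted p = 0.99).

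Apob was also read by 4 further probes, and the 5 probes shared their lowest rat but not the order of the others. CO2/O2 replicate 1 was the lowest rat at 5 of 5 probes. Isoflurane replicate 1 was the highest rat at 4 of 5, the exception being A_44_P552692, where CO2/O2 replicate 3 was highest. At probe A_44_P402339 the values were 4.66, 4.46 and 4.35 in isoflurane rats and 4.20, 4.47 and 4.36 in CO2/O2 rats. At probe A_44_P553791 they were 5.32, 5.17 and 5.14 in isoflurane rats and 4.90, 5.13 and 5.06 in CO2/O2 rats, so that these groups did not overlap. Probe A_44_P219789 likewise did not overlap, with 4.12, 4.09 and 4.07 in isoflurane rats and 3.83, 4.06 and 4.07 in CO2/O2 rats, with the lowest isoflurane rat and the highest CO2/O2 rat equal to 2 decimals. All 5 differences were above 0, from 0.011 to 0.18, and 0 of 5 passed the threshold. The range of 0.17 between probes can be set beside a median range of 0.20 over the 63 genes with 5 tested probes. The 5 probes read the same 6 extracts and are not independent of each other.

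Mttp encodes the large subunit of microsomal triglyceride transfer protein. Its brighter probe, A_44_P684874, read 3.61, 3.57 and 3.83 in isoflurane rats, against 4.004, 3.74 and 3.79 in CO2/O2 rats. The highest isoflurane rat lay above 2 of the 3 CO2/O2 rats. The difference was -0.17 ± 0.12 (SE; limma adjusted p = 0.76), with an interval of 0.729-fold to 1.08-fold. With an array left out it ran from -0.25 to -0.094, which was the value without CO2/O2 replicate 1.

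The other Mttp probe, A_44_P304658, gave almost the same difference, -0.18 ± 0.14 (SE), from values of -0.81, -0.90 and -0.58 in isoflurane rats and -0.38, -0.62 and -0.75 in CO2/O2 rats. Both probes put CO2/O2 replicate 1 highest and isoflurane replicate 2 lowest. CO2/O2 replicate 1 was thus the rat with the highest Mttp signal at 2 of 2 probes and the lowest Apob signal at 5 of 5. The 2 Mttp differences were 0.0064 apart, against a median of 0.085 over the 3658 genes with 2 tested probes.

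**Figure D2:**
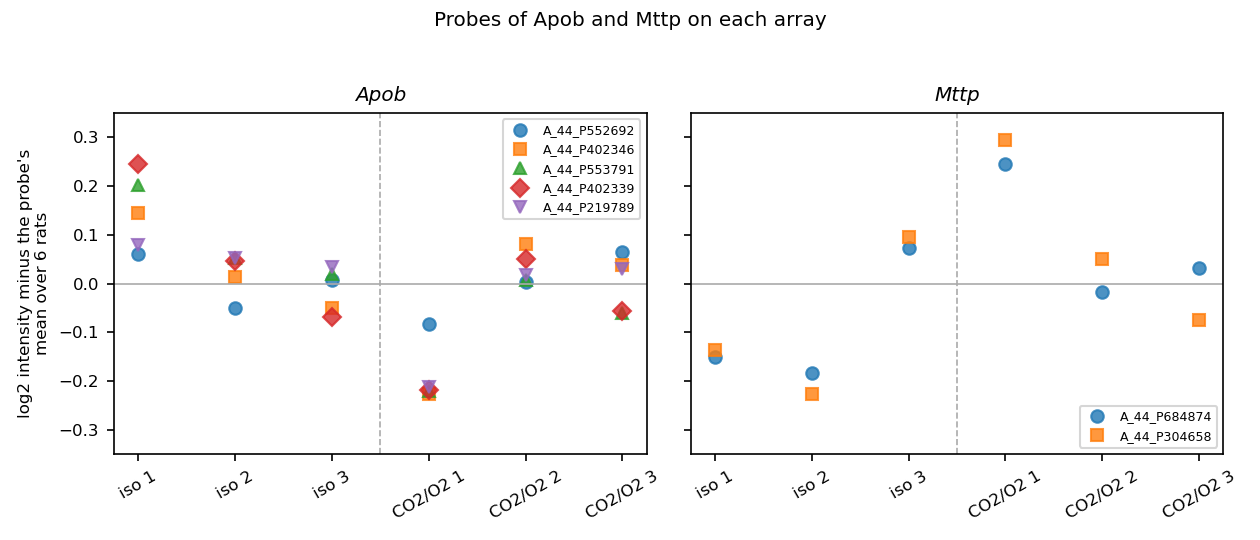
Log2 intensity of each probe minus its own mean over the 6 rats, for the 5 probes of Apob (left) and the 2 probes of Mttp (right); rats run along the horizontal axis, isoflurane replicates 1 to 3 before CO2/O2 replicates 1 to 3. CO2/O2 replicate 1 is lowest for every Apob probe and highest for both Mttp probes.

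Apoa1 encodes the main structural protein of HDL and the activator of lecithin cholesterol acyltransferase. It read 8.15, 8.38 and 8.51 in isoflurane rats, against 8.17, 8.30 and 8.42 in CO2/O2 rats. Each group held a low, a middle and a high rat over nearly the same span, so the groups overlapped throughout. The means were 8.35 ± 0.18 and 8.30 ± 0.12 (SD, n = 3 each), and the difference was 0.050 ± 0.12 (SE; limma adjusted p = 0.95).

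Apoa2 encodes the second structural protein of HDL. It read 8.66, 8.72 and 8.59 in isoflurane rats, against 8.59, 8.53 and 8.25 in CO2/O2 rats. The groups did not overlap, but the lowest isoflurane rat and the highest CO2/O2 rat were equal to 2 decimals. The spread lay mostly in CO2/O2 replicate 3, the lowest rat. The difference of 0.20 ± 0.11 (SE) was the largest above 0 among the 10 genes and did not pass the threshold (limma adjusted p = 0.73). With an array left out it ran from 0.098, without CO2/O2 replicate 3, to 0.27, without CO2/O2 replicate 1.

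Apoa4 encodes a protein of HDL and of chylomicrons, the particles of the intestine, and in rodents it is also made by the liver. It had the largest spread between rats of the 10 genes. Values were 8.30, 8.87 and 8.56 in isoflurane rats, against 8.51, 8.81 and 8.87 in CO2/O2 rats. The highest rat of each group read 8.87, and the groups overlapped. The means were 8.58 ± 0.28 and 8.73 ± 0.19 (SD, n = 3 each), and the difference was -0.15 ± 0.17 (SE; limma adjusted p = 0.86). Dropping isoflurane replicate 1, the lowest rat, gave a difference of -0.014, and dropping isoflurane replicate 2, the highest of its group, gave -0.30; these were the ends of the range with an array left out. Isoflurane replicates 2 and 3 were the only arrays on the second row of the slide. With slide row as a block, where only 1 isoflurane rat shares a row with the CO2/O2 rats, the difference was -0.43 (limma unadjusted p = 0.0860, adjusted p = 1.00).

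Apoa5 encodes a low-abundance plasma protein that raises the activity of lipoprotein lipase. It read 8.06, 8.15 and 8.10 in isoflurane rats, against 8.17, 8.27 and 8.23 in CO2/O2 rats. All 3 isoflurane rats lay below all 3 CO2/O2 rats, and the gap between the nearest rats was smaller than the spread within either group. The difference was -0.12 ± 0.078 (SE; limma adjusted p = 0.76), with an interval of 0.808-fold to 1.05-fold. Groups that do not overlap were thus seen for 2 of the 10 genes, Apoa2 and Apoa5, where the share over all genes tested was 14.2%. Over probes it was 4 of 16, against 13.6% of all probes tested.

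Apoc1 encodes a small protein that inhibits lipoprotein lipase and slows particle uptake by receptors. It read 9.22, 9.26 and 9.13 in isoflurane rats, against 9.12, 9.19 and 9.16 in CO2/O2 rats, which lay within the isoflurane range apart from CO2/O2 replicate 1. The difference was 0.050 ± 0.079 (SE; limma adjusted p = 0.91). Apoc3 encodes another lipase inhibitor, which raises plasma triglyceride. Its brighter probe, A_44_P327799, read 9.26, 9.30 and 9.15 in isoflurane rats and 9.14, 9.22 and 9.15 in CO2/O2 rats. The difference there was 0.063 ± 0.082 (SE), and its other probe, A_43_P11435, gave 0.074 ± 0.095 (SE). Both Apoc3 probes put isoflurane replicate 2 highest, but the lowest rat was CO2/O2 replicate 1 at the brighter probe and isoflurane replicate 3 at the other.

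Apoe encodes a ligand of the receptors that clear remnant particles, and it is made by hepatocytes and by macrophages. It read 9.38, 9.36 and 9.33 in isoflurane rats, against 9.33, 9.38 and 9.32 in CO2/O2 rats. All 6 rats lay within 0.066 log2 units of each other. The difference was 0.017 ± 0.075 (SE; limma adjusted p = 0.97). Of 11 markers of Kupffer cells, which are macrophages that live in the liver sinusoids, 11 had differences below 0, with a median of -0.33, and 0 passed the threshold over all probes. At an unadjusted p under 0.05 there were 6 of 11, where the share of all genes was 7.58%, and groups did not overlap for 6 of 11, where it was 14.2%. All 11 were well above background on all 6 arrays. Their summed level, in multiples of the array's 75th percentile, was 171.0 to 202.4 in isoflurane rats and 211.5 to 259.9 in CO2/O2 rats. The lowest sums, 181.0 and 171.0, were those of isoflurane replicates 2 and 3, the arrays on the second slide row. The part of slide row in these values was not tested. These 11 markers were read in the same 6 rats and are not independent of each other. What part of the Apoe signal comes from these cells was not tested. In whole liver, fewer cells of a type and less RNA per cell cannot be told apart.

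Apoh encodes a plasma glycoprotein that binds phospholipids and is found partly on lipoproteins. It read 8.85, 8.78 and 8.78 in isoflurane rats, against 8.81, 8.83 and 8.81 in CO2/O2 rats. The CO2/O2 rats were almost identical, and isoflurane replicate 1 was the highest of the 6. The difference was -0.012 ± 0.074 (SE; limma adjusted p = 0.98).

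**Figure D3:**
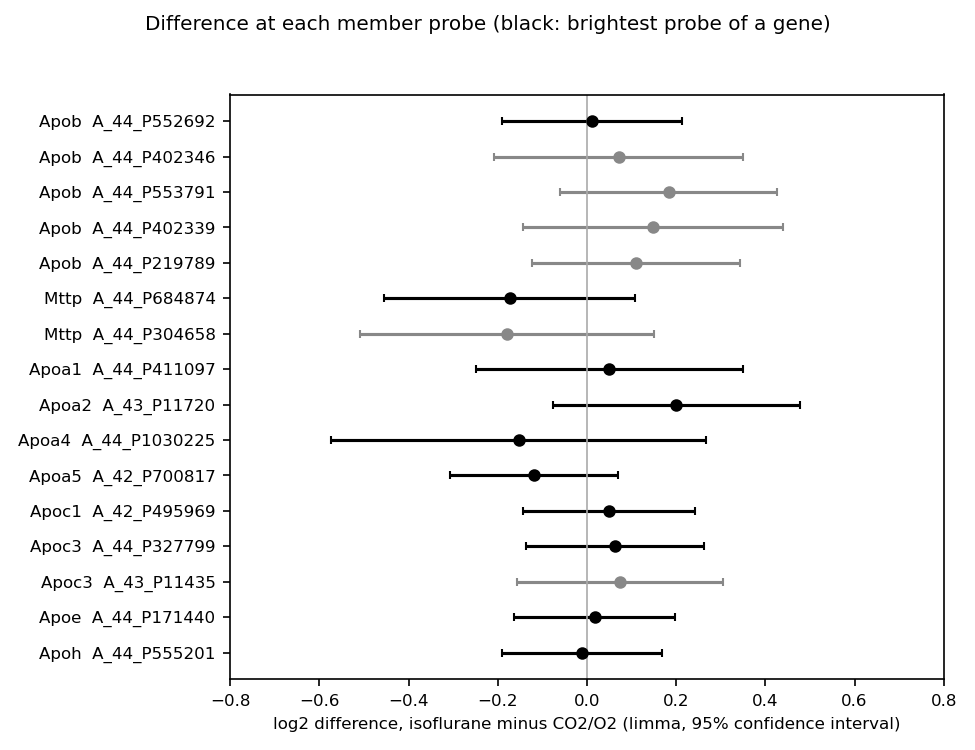
Log2 difference, isoflurane minus CO2/O2, at each of the 16 probes with its 95% confidence interval from limma; black marks the brightest probe of a gene and grey its other probes. Every interval crosses 0, and the widest belongs to Apoa4.

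The spread between rats, each read on 1 array, varied widely among the 10 genes. Variation between rats and variation between arrays cannot be told apart here, and slide row also differed within the isoflurane group. The within-group SD, pooled over both groups, was smallest for Apoh at 0.028 and Apoe at 0.031 log2 units, or 1.94% and 2.21% on the linear scale. It was largest for Apoa4 at 0.24, or 18.3%, followed by Apoa1 at 0.15, Mttp at 0.14 and Apoa2 at 0.14. Between these lay Apoa5 at 0.046, Apoc1 at 0.052, Apoc3 at 0.062 and Apob at 0.065. The median over the 10 genes was 0.063, against 0.15 over all genes tested. Among all tested probes, the SD of Apoh stood at percentile 0.427 and that of Apoe at 0.673, whereas Apoa4 stood at 73.3.

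Spread followed signal only in part among the 10 genes. Apoe, the brightest at a mean log2 intensity of 9.35, had an SD of 0.031. Apoa5, at 8.17, had 0.046, while the brighter Apoa4, at 8.65, had 0.24. On these arrays the SD falls as signal increases, and 9 of the 10 genes were among the 3464 brightest of the 34637 tested probes, whose median SD was 0.12. Of the 10 genes, 6 lay below that median. The scanner's ceiling also came near, although no spot was saturated. The median pixel signal of Apoe was 77.6% to 82.4% of the saturation value, that of the brighter Apoc3 probe 68.1% to 72.2%, and that of Apoc1 61.9% to 66.7%. Apoh lay at 54.7% to 59.6% and Apoa4 at 40.7% to 65.9%. Over the 59 tested probes that averaged 60% of the ceiling or more, the median SD was 0.063. Over the 257 probes at 30% or more it was 0.077. The 10 member probes above 30% had a median SD of 0.063, and the 6 below it, 4 of Apob and 2 of Mttp, all of them under 5% of the ceiling on average, had 0.14. Apoa4, Apoa2 and Apoa1 averaged 54.2%, 48.2% and 37.7% of the ceiling, below Apoe, Apoc3, Apoc1 and Apoh, and had an SD above 0.12. The part of the ceiling in these spreads was not tested.

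**Figure D4:**
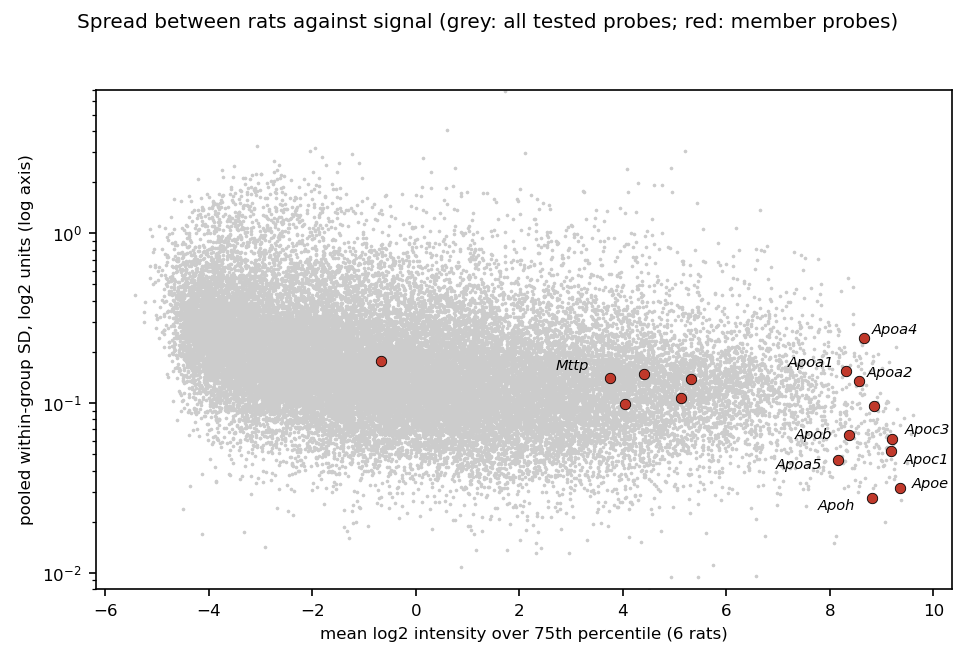
Pooled within-group SD (log2 units, log axis) against mean log2 intensity over the 75th percentile, with a grey point for each tested probe and red points for the 16 member probes, labelled at the brightest probe of each gene. The SD of all probes falls with signal, and the 9 brightest genes of the set run from Apoh at 0.028 to Apoa4 at 0.24.

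Apoa1, Apoc3, Apoa4 and Apoa5 neighbour each other on chromosome 8 in the GRCr8 assembly, and Apoc1 and Apoe neighbour each other on chromosome 1. The 4 neighbours on chromosome 8 did not share a pattern across rats. Their differences were 0.050, 0.063, -0.15 and -0.12 in that order. Isoflurane replicate 1 was the lowest rat for Apoa1, Apoa4 and Apoa5, but was above the gene's mean for Apoc3. Likeness was measured as the root mean square difference of log2 values centred per gene over the 6 rats. This measure depends on the spread of the genes compared, so genes with little spread come out alike. The closest pair of the 10 genes was Apoc1 and Apoc3, on different chromosomes, at 0.015. The next was Apoe and Apoh at 0.025, the members with the least spread. The least alike were Apoa2 and Apoa4 at 0.31, and Apoa4 and Mttp at 0.27.

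Apoa4 had the largest SD over the 6 rats, and of 10596 other genes the 3 most like it were Hif3a at a root mean square difference of 0.057, Olfm1 at 0.060 and C18h18orf21 at 0.068. Centred on its mean, Apoa4 read -0.35, 0.21 and -0.09 in isoflurane rats and -0.14, 0.15 and 0.22 in CO2/O2 rats. Hif3a read -0.26, 0.20 and -0.08 in isoflurane rats and -0.15, 0.18 and 0.12 in CO2/O2 rats. These matches over 6 rats are descriptions.

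The upstream sequence of 3 genes is shown to set the genes at the ends of this range beside each other: Apoa4, with the largest spread, Apoh, with the smallest, and Apoa5, whose groups did not overlap. Each is the 100 bases before the annotated start, 5′ to 3′ on the coding strand, from RefSeq's GRCr8 table, in which 5 of the 10 genes were matched. Capitals mark TATAAA or TTTAAA within 50 bases of the start, searched on both strands, TTTAAA being its own reverse complement.
Apoa4, chr8:55435679-55435778, + strand: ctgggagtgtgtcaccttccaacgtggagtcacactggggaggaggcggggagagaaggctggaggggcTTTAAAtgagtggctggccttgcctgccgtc
Apoa5, chr8:55457771-55457870, + strand, the first of 2 starts in the table: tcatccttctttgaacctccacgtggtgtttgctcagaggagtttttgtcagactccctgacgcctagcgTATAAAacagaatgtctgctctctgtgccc
Apoh, chr10:93841892-93841991, + strand: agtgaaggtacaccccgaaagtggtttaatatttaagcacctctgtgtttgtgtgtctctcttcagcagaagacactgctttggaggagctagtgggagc
The motif began 31 bases before the start in Apoa4 and 30 bases before it in Apoa5, and these letters were not in that window of Apoh. The 5 matched genes have 9 starts in the table, and only these 2 of the 9 held a motif in that window, so the second Apoa5 start did not. Of 33469 promoters in the table, 5.40% held either motif in the same window. Any link between a motif and the spread or the group difference of a gene was not tested.

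Other genes of lipoprotein metabolism also gave no call. Of 83 listed names, where Mylip also stood under its synonym Idol, 68 genes were tested. Of these, 24 had differences above 0 and 44 below, and 0 passed over all probes. At an unadjusted p under 0.05 there were 5 of 68, where the share of all genes was 7.58%. Groups did not overlap for 5 of 68, against 14.2% of all genes. The median difference was -0.052, against -0.011 over all genes tested.

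The list of other apolipoprotein genes also held Apobec1, which does not encode an apolipoprotein. Of the 7 tested genes of that list, 6 had differences below 0, among them Apobec1 at -0.071 ± 0.14 (SE). Apoc2, the activator of lipoprotein lipase, had a difference of 0.018 ± 0.094 (SE), and Apom, a carrier of sphingosine phosphate on HDL, -0.076 ± 0.16. The largest moderated t of that list was that of Apol9a, with -0.33 ± 0.13 (SE; limma adjusted p = 0.65). Of 8 genes of assembly and secretion, 3 were above 0 and 5 below. P4hb, which encodes protein disulfide isomerase, the partner subunit of the transfer protein, had 0.061 ± 0.12 (SE). Sar1b, a GTPase of the coat that carries cargo out of the endoplasmic reticulum, had -0.15 ± 0.079 (SE), and its groups did not overlap.

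Lipid supply genes were above 0 for 5 of 13. Lpin2, a phosphatidate phosphatase of triglyceride synthesis, read -0.21, -0.29 and 0.78 in isoflurane rats, against -0.60, -0.81 and -0.64 in CO2/O2 rats. Its difference was 0.77 ± 0.29 (SE; limma adjusted p = 0.64), led by isoflurane replicate 3, and its other probe gave 0.74. Of 9 receptor and uptake genes, 1 was above 0 and 8 below. Cd36, a fatty acid and lipoprotein receptor, had the largest difference of all 68 genes. It read 2.86, 1.72 and 1.59 in isoflurane rats, against 4.57, 4.07 and 2.83 in CO2/O2 rats. Isoflurane replicate 1 and CO2/O2 replicate 3 overlapped narrowly. The difference was -1.76 ± 0.53 (SE; limma adjusted p = 0.59), with -1.75 and -1.52 at its other probes. Scarb1, the HDL receptor, had -0.061 ± 0.094 (SE).

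In the list of plasma remodelling, 2 of 8 genes were above 0. Angptl4, an inhibitor of lipoprotein lipase, had -0.45 ± 0.25 (SE; limma adjusted p = 0.72), and Lcat, which esterifies the cholesterol of HDL, -0.065 ± 0.098. Of 4 efflux transporters, 2 were above 0 and 2 below. Abcg1, which exports cholesterol to HDL, had -0.20 ± 0.088 (SE; limma adjusted p = 0.66), with groups that did not overlap, and Abca1, which loads lipid onto apolipoprotein A-I, had 0.012 ± 0.10.

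Transcriptional regulators of apolipoprotein genes were above 0 for 10 of 19. Ppara, the fatty acid receptor that in rodents lowers hepatic Apoc3 when activated, had 0.63 ± 0.20 (SE; limma adjusted p = 0.60), with 0.66 at its other probe. Nr1d1, a clock repressor that in rodents also lowers Apoc3 transcription, had 0.62 ± 0.23 (SE; limma adjusted p = 0.64). The Apoc3 difference was 0.063, and any tie between it and the signal of these regulators was not tested. Hnf4a, the hepatocyte receptor that drives many apolipoprotein genes, had 0.38 ± 0.18 (SE; limma adjusted p = 0.69), with 0.19 and 0.03 at its other probes.

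**Figure D5:**
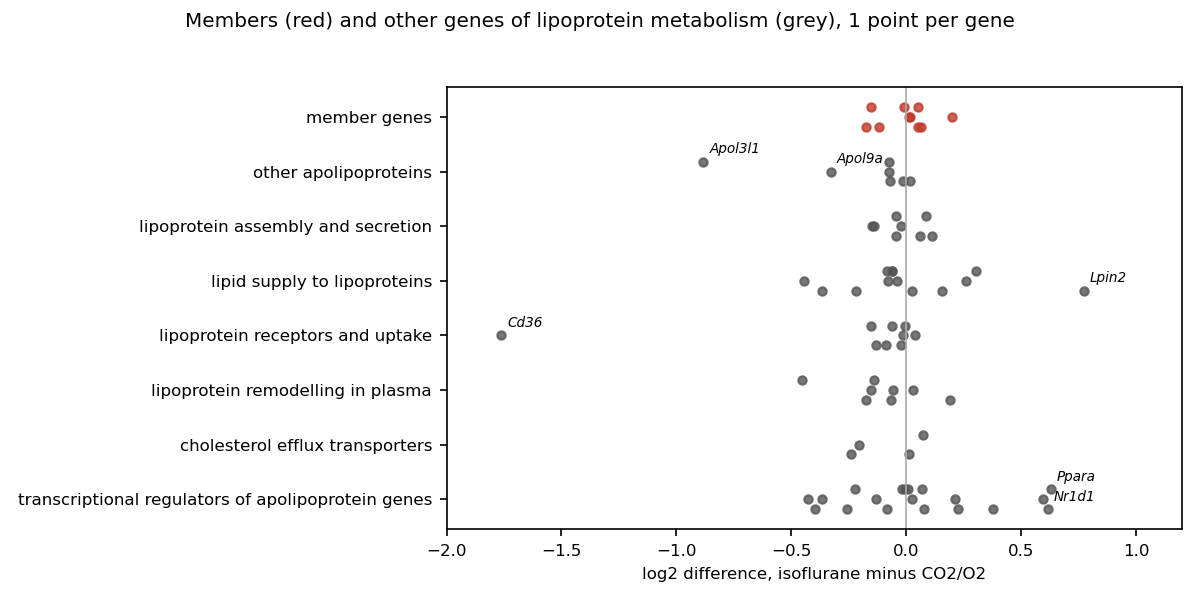
Log2 difference, isoflurane minus CO2/O2, with 1 point per gene at its brightest probe: the 10 member genes on top (red) and 68 other genes of lipoprotein metabolism in 7 lists below (grey). The members lie between -0.17 and 0.20, inside the span of the other genes, whose ends are Cd36 at -1.76 and Lpin2 at 0.77.

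The share of probes well above background was 60.6%, 53.4% and 55.7% in isoflurane rats and 56.9%, 60.2% and 62.3% in CO2/O2 rats, with the lowest values on the arrays of the second slide row. The 75th percentile of intensity was 921.4, 912.5 and 952.3 in isoflurane rats and 997.2, 941.2 and 998.3 in CO2/O2 rats. The groups overlapped in both, with lower isoflurane means, and the part of these differences in the values above was not tested beyond the other scalings and filters. The 10 hepatocyte markers, among them Alb, Ttr and Hpx, had a median difference of 0.02 and were all above background on all 6 arrays. Markers of stellate cells had a median difference of 0.02 (6 tested), those of sinusoidal endothelial cells -0.07 (4 tested) and those of cholangiocytes -0.33 (5 tested). That last median was the value of Krt7, which was well above background on only 1 of 3 isoflurane arrays. Of the 5 cholangiocyte markers, 4 were below 0, from Spp1 at -1.19 to Krt19 at -0.023, and Epcam was at 0.083. Of 8 markers of intestinal epithelium, which also makes Apob, Apoa1 and Apoa4, 3 were tested. The largest difference among them was that of Fabp2, at -0.53 ± 0.21 (SE, limma adjusted p = 0.65). Lct went the other way, at 0.14 ± 0.14 (SE). Lgr5, at -0.087 ± 0.20 (SE), was well above background on only 1 of 3 isoflurane arrays. The part of intestinal epithelium in the Apoa4 values was not tested.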

How the data were processed

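Per the labels' protocols, Cy3-labelled RNA of 1 rat was hybridised to each array. Agilent Feature Extraction 10.7 produced the values, per the submitters' processing notes. The authors deposited, per array, spot intensity values on a linear scale, background-subtracted within the array per the file headers and not scaled between arrays. The authors also deposited a value table, a ratio per probe. In every column, dividing the scanner file's processed intensity by the table gave 1 constant near that array's 75th percentile, with column medians of 0.0917, 0.0901 and 0.0905 for isoflurane replicates 1 to 3 and 0.0864, 0.0881 and 0.0868 for CO2/O2 replicates 1 to 3. The origin of the constant is unstated there.

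Processed intensity was put on a log2 scale and, per array, the 75th percentile of the 61657 non-control probes was subtracted. The scanner software's outlier marks removed 177 spots, none of them on a member probe. The test took in the 34637 probes that were well above background in every rat of one group or the other. Accessions were matched, without versions, to RefSeq genes of GRCr8, used for names and neighbours; 27460 probes matched 1 gene and 34197 none. The array design names another build, and probe sequences and positions were not used here. Groups were compared with limma 3.58.1 in R 4.3.3 (lmFit, eBayes), and p-values were adjusted by Benjamini-Hochberg over all tested probes. A gene was read at its brightest tested probe. Python 3.11.15 was used for tables and plots. The test was also run on simulated data in which probes varied independently and changes were larger than any member difference. That run does not bear on changes of the size seen in the members.

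The members and the gene lists were chosen with earlier results of these data known. All members are named. Of each pathway list, genes with an unadjusted p under 0.05, at most 4, and always the one with the largest moderated t were named. Apobec1, Apoc2, Apom, P4hb, Scarb1, Lcat, Abca1, Hnf4a and the markers named were added after their values were seen. Alternatives were normexp with an offset of 50, on the median signal because the files hold no mean signal, quantile normalization, median centring, the authors' table, 2 other filters, outlier spots kept, eBayes with trend and robust, blocks for replicate number and slide row, the mean of a gene's probes, and leaving out each array. The 6 arrays shared a slide and a scan. Nothing in the labels ties equal replicate numbers to each other, and the samples were therefore treated as unpaired. The deviations of same-numbered rats from their group means correlated at 0.11, 0.021 and 0.060 over 34570 probes. Those of rats with different numbers correlated at -0.094 to 0.037. With 3 arrays per group, their number limits the precision.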

Additional observations from a re-analysis of the deposited data

How the results depend on the processing

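None of the 10 genes passed the threshold in any of the 17 alternatives, where the smallest adjusted p was 0.509 and the smallest unadjusted p 0.0607. Nor did any other listed lipoprotein gene tested in each, or any member probe wherever probes were fitted singly, which leaves out the mean of a gene's probes. Of 170 recomputed differences, 13 changed sign. Apoa2, Apoa4, Apoa5, Apoc3 and Mttp kept their direction in all 17. Sign changes by scaling were Apoh at 0.0041 with normexp, Apoe at -0.016 with quantile normalization, and, with median centring, Apoa1 at -0.0088, Apob at -0.048, Apoc1 at -0.0094 and Apoe at -0.042. Median centring also turned the median over the 10 genes to -0.045. With the slide row as a block, which rests the isoflurane arm on replicate 1, Apoa1 was -0.14, Apoh 0.032 and Apoa4 -0.43. With an array left out, Apoa1 ran from -0.030 to 0.15, Apob from -0.028 to 0.046 and Apoh from -0.033 to 1.0e-05. Over the whole array 3 probes passed in limma, and this number became 1 without the filter on dim probes, 5 under normexp and likewise 5 under eBayes with trend and robust, 1 to 20 when an array was left out, and 0 with the replicate block, which left every member uncalled. The causes were not tested. The number of rats, 3 per group, limits what could be seen; whether nearness to the scanner's ceiling does was not tested.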
